A study of Mus musculus with 2 samples.

Results

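The genes described are 10 that make, inactivate or sense prostaglandin E2 (PGE2), out of 19674 gene rows in a count table of cultured mouse skin fibroblasts. They were chosen by symbol: the phospholipase Pla2g4a, the cyclooxygenases Ptgs1 and Ptgs2, the terminal synthases Ptges and Ptgis, the degrading enzyme Hpgd, and the PGE receptors Ptger1, Ptger2, Ptger3 and Ptger4. All 10 symbols were found. The cells are a fibroblast line from skin, called MDFB in the labels, with a wild-type genotype. 1 culture received IL-17A and 1 received vehicle, both carried the same batch label, and each gave 1 bulk RNA-seq library. The labels give neither the dose nor the length of treatment, and a single line with 1 library per group is a limit of the model. The question was how transcripts of this pathway differ between IL-17A and vehicle cultures, in a series on the skin cells that IL-17 acts on.

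Prostaglandin synthesis starts when a phospholipase frees arachidonic acid from membranes. A cyclooxygenase turns it into the unstable prostaglandin H2, and a terminal synthase then sets which prostaglandin leaves the cell. PGE2 is a mediator of pain, swelling and fever and acts on neighbouring cells through the EP receptors EP1 to EP4, which are encoded by Ptger1 to Ptger4. EP2 and EP4 raise cyclic AMP, EP3 mainly lowers it, and EP1 is linked to calcium signals. Hpgd encodes 15-hydroxyprostaglandin dehydrogenase, which begins the breakdown of PGE2. IL-17A is a cytokine of T cells that acts on skin cells in inflammatory disease such as psoriasis.

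The IL-17A library held 23559416 counts and the vehicle library 24427027. Levels are given in CPM, a gene's count relative to its library size after TMM scaling. Levels of different genes are ranked as CPM per kilobase of the longest coding transcript. Shares within a library and summed levels are of counts, with no regard to length unless stated. Ratios are IL-17A over vehicle. With 1 library per group no difference has a replicate check, and the 95% intervals cover counting error only. The 13534 genes whose counts in the 2 libraries added up to 50 or more are referred to as measured, and among them a ratio of 2-fold or more in either direction was taken as a call.

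Markers of fibroblasts and of other cell types were read beside the members, and from each list the markers with the most counts over both libraries, with no regard to length, are named. The 10 fibroblast markers summed to 42932 CPM with IL-17A and 57728 CPM with vehicle, with the most counts for the collagen genes Col1a1 and Col1a2. Of these 10, 1 was at least 2-fold higher, the proteoglycan gene Dcn with 96320 counts with IL-17A and 17022 with vehicle, a ratio of 6.15, and none was at least 2-fold lower. The 7 macrophage and leukocyte markers summed to 282 CPM with IL-17A and 202 CPM with vehicle, with the most counts for Lyz2 and Csf1r, with none past 2-fold. Mural cell markers summed to 54.8 CPM with IL-17A and 155.5 CPM with vehicle, with the most counts for Cspg4 and Notch3. All 4 measured of these 5 mural markers were at least 2-fold lower, but Kcnj8 and Abcc9 reached the minimum only through the vehicle library. The remaining lists were low in both libraries. Keratinocyte markers, chiefly Krt10 and Krt14, summed to 3.17 CPM with IL-17A and 2.20 CPM with vehicle. Endothelial markers, chiefly Cdh5 and Tek, summed to 5.87 CPM with IL-17A and 6.12 CPM with vehicle. Of the 3 measured, 1 was at least 2-fold lower, Tek with 18 counts with IL-17A and 49 with vehicle. Its ratio of 0.399 had an interval of 0.219 to 0.698 that reaches inside 2-fold. The list was mixed in direction: Cdh5 had 47 counts with IL-17A and 33 with vehicle, and Vwf 27 and 29. Under the minimum, Pecam1 had 33 and 11 and Kdr 10 and 31. Melanocyte and Schwann cell markers, chiefly Sox10 and Pmel, summed to 6.61 CPM with IL-17A and 8.16 CPM with vehicle. Adipocyte markers, chiefly Adipoq and Plin1, summed to 0.478 CPM with IL-17A and 1.56 CPM with vehicle. Of the 4 mast cell markers in the table, Cpa3, Mcpt4 and Tpsb2 had no count in either library and Kit had 5 with IL-17A and 6 with vehicle.

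Of the 8 members with enough counts, 3 were at least 2-fold higher with IL-17A, namely Ptgs2, Ptges and Pla2g4a. Only 1 was at least 2-fold lower, namely Ptger3, which reached the minimum only through the vehicle library. In bulk RNA, fewer cells of a type and less RNA per cell cannot be told apart. Across the table, 5.19% of measured genes passed 2-fold upward and 3.69% downward. The median log2 ratio of the 8 members was 0.30, against 0.0015 over all measured genes, and with the sparse Hpgd and Ptger1 included it was -0.086. The 10 members together held 697.6 CPM with IL-17A and 197.8 CPM with vehicle. Ptges supplied 53.9% (interval 53.1 to 54.7) of the members' counts with IL-17A and 19.5% (interval 18.4 to 20.6) with vehicle. Per transcript length its share was 51.6% with IL-17A and 16.1% with vehicle.

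The measured members spanned a wider range of levels with IL-17A. Per kilobase, the 8 measured members ran from 0.456 CPM for Ptger3 to 103.1 CPM for Ptges with IL-17A, a span of 226-fold. With vehicle they ran from 1.39 CPM for Ptger2 to 12.2 CPM for Ptgis, a span of 8.76-fold. Without the lowest measured member of each library the spans were 61.1-fold with IL-17A and 5.15-fold with vehicle. The minimum left out Hpgd and Ptger1, which would widen both spans. Per kilobase, Hpgd stood at 0.129 CPM with IL-17A and 0.808 CPM with vehicle, and Ptger1 at 0.0463 and 0.247 CPM. In the vehicle library 6 of the measured members, Ptgis, Ptgs1, Ptges, Pla2g4a, Ptger3 and Ptger4, lay between 8.62 and 12.2 CPM per kilobase. Among these, the counting intervals of Ptgis, Ptgs1 and Ptges overlapped one another, as did those of Pla2g4a, Ptger3 and Ptger4. With IL-17A the order was Ptges, Pla2g4a, Ptgs2, Ptgs1, Ptgis, Ptger4, Ptger2, Ptger3, Hpgd and Ptger1. Only Hpgd and Ptger1 had overlapping intervals as neighbours. The order of Pla2g4a and Ptgs2 depended on the length used. Per merged length of all annotated exons, Ptgs2 held 17.9% of the members' total with IL-17A and Pla2g4a 9.93%.

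**Figure D1:**
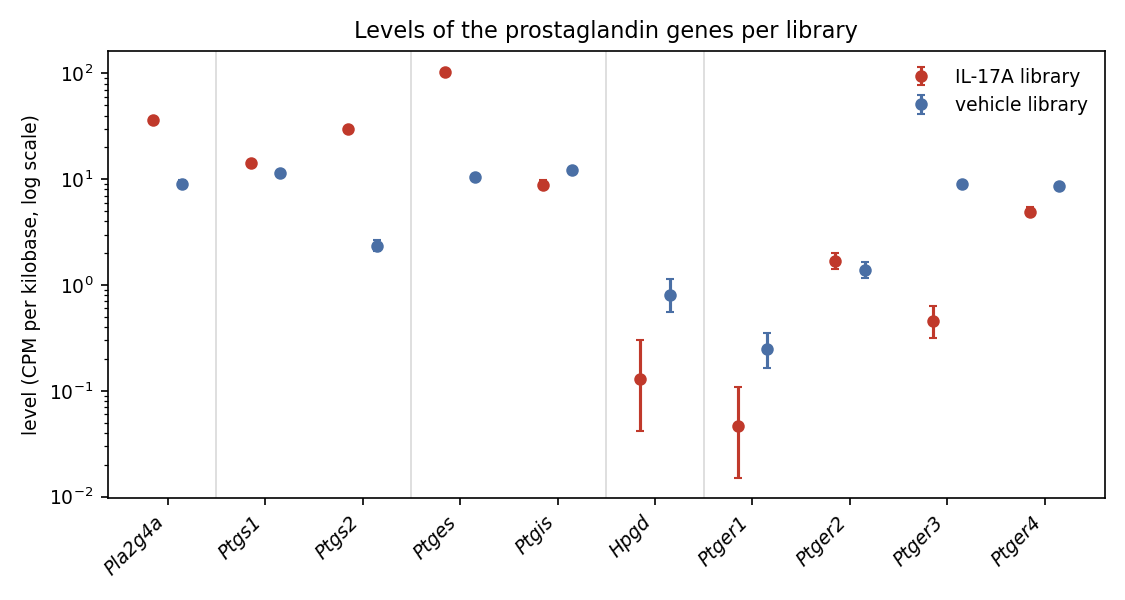
Level of each member in the IL-17A library (red) and the vehicle library (blue), in CPM per kilobase of transcript on a log axis. Bars are 95% Poisson counting intervals and grey lines separate the roles. With vehicle 6 members lie between 8.62 and 12.2 CPM per kilobase, and with IL-17A they spread apart, Ptges to 103.1 and Ptger3 to 0.456.

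At the step that frees the substrate, the transcript of the member Pla2g4a was higher with IL-17A, while enzyme activity was not measured. Pla2g4a, the cytosolic phospholipase A2 that releases arachidonic acid, had 2381 counts with IL-17A and 645 with vehicle. That is 103.5 CPM against 25.8 CPM, a ratio of 4.01 (interval 3.68 to 4.38), and 98.4% of measured genes had a lower ratio. On GRCm38, the build also called mm10, Pla2g4a lies on the minus strand of chromosome 1 at 149829618 to 149961290. Ptgs2 lies 138.7 kb beyond its start, on the plus strand at 150100031 to 150108227, so these genes of consecutive steps point away from each other and were both at least 2-fold higher with IL-17A. The noncoding genes annotated beside Ptgs2, named after their values were seen, were low. Ptgs2os2 had 112 counts with IL-17A and 48 with vehicle, a log2 ratio of 1.34, and Ptgs2os had 18 and 4.

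The cyclooxygenases differed from each other. Ptgs2, the inducible enzyme COX-2, had 3083 counts with IL-17A and 263 with vehicle, which is 134 CPM against 10.5 CPM. Its ratio of 12.7 (interval 11.2 to 14.5) was the 64th highest of the 13534 measured genes. Ptgs1, the enzyme COX-1 that many cells make without stimulation, had 944 counts with IL-17A and 824 with vehicle, a ratio of 1.25 (interval 1.13 to 1.37). Ptgs2 held 76.6% (interval 75.2 to 77.9) of the cyclooxygenase counts with IL-17A and 24.2% (interval 21.7 to 26.9) with vehicle. Per transcript length its share was 67.8% with IL-17A and 17.05% with vehicle, so the order of the enzymes was opposite in the libraries on both scales. Their summed level was 175 CPM with IL-17A and 43.5 CPM with vehicle, a ratio of 4.03 (interval 3.76 to 4.31). Ptgs1 lies on chromosome 2 at 36230426 to 36252272, and 3.81% of its exon bases are shared with an unclassified transcript on the other strand.

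The start regions of both cyclooxygenase genes, and of Ptges and Ptger3, the members outside the cyclooxygenases that stood farthest from 0 in each direction, are printed from RefSeq on GRCm38.p6, 250 bases before to 50 bases after the annotated start, 5′ to 3′ on the gene's strand. Capitals mark matches, on either strand, to the 6 motifs searched: the NF-kB consensus, the C/EBP site TTGCNNAA, the AP-1 site TGANTCA, the short cyclic AMP element TGACG, the E-box CACGTG and the TATA box TATAAA.
Ptgs2, chr1:150099781-150100080, plus strand: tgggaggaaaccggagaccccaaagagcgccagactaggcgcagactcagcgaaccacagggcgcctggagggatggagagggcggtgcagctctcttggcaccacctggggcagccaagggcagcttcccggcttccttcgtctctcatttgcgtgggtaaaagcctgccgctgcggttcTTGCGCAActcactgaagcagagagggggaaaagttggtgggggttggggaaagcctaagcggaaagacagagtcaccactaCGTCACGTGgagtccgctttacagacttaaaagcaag
Ptgs1, chr2:36230176-36230475, plus strand: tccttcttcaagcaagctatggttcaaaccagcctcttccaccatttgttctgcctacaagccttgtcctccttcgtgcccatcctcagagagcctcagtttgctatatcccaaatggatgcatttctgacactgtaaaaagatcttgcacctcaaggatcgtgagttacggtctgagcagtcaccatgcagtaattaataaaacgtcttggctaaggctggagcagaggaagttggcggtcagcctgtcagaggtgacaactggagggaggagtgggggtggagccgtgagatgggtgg
Ptges, chr2:30903248-30903547, minus strand: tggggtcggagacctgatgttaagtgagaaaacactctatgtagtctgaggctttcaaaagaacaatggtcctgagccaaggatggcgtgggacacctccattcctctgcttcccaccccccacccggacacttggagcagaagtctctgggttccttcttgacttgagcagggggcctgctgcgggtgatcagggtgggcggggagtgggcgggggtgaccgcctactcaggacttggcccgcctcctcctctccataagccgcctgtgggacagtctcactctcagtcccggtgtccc
Ptger3, chr3:157566626-157566925, plus strand: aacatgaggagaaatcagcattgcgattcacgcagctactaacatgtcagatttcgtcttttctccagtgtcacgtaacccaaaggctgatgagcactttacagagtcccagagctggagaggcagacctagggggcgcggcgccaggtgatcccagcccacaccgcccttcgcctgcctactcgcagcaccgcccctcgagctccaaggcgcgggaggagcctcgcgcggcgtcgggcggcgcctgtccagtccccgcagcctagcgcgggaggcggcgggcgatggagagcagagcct

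Matches were found in the Ptgs2 window only among these 4. Its C/EBP match lies at -69 to -62, counted with the annotated start as base 1, and reads the same on both strands. A cyclic AMP element on the minus strand at 14 to 18 overlaps an E-box at 17 to 22. Of 32851 promoter windows of this length in the table, 10.8% held the C/EBP motif, 20.8% the cyclic AMP element and 7.15% the E-box. The NF-kB consensus was in 4.51% of windows, the AP-1 site in 7.81% and the TATA box in 13.6%, and none of these was in the 4 windows printed. The windows are 59.3% G and C for Ptgs2, 50.7% for Ptgs1, 60.0% for Ptges and 64.0% for Ptger3, against a median of 52.7% over all windows. The RefSeq window of Ptges lies inside the GENCODE M21 gene model of 30889471 to 30929863, which is used for its position and transcript length. On the minus strand that model starts at 30929863, and the bases around that start were not searched. Windows were found for 8 of the 10 members. Of those not printed, Hpgd matched the TATA letters at 5 to 10 and a second start of Pla2g4a at -200 to -195. Ptger2 matched the C/EBP letters at 40 to 47. These are matches of letters, and their use as sites was not tested.

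The transcripts of the cyclooxygenases also differ in AUUUA pentamers, short elements of the 3′ untranslated region known for marking unstable mRNAs. The Ptgs2 3′ untranslated region of 2445 bases in the GENCODE M21 annotation holds 14 of them, and that of Ptgs1, 921 bases long, holds 0. At least as many as in Ptgs2 were found in 2.92% of 21028 genes. A run of 4 lies at positions 12 to 41 after the Ptgs2 stop codon, printed with T for U and the pentamers in capitals, the first 3 overlapping.
Ptgs2, 3′ untranslated region, chromosome 1: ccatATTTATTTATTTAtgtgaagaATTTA
Pla2g4a holds 4 in 443 bases, a density matched or passed by 0.819% of the 17822 genes with at least 200 bases of 3′ untranslated region. By density the share for Ptgs2 is 4.32%. By count, 27.6% of the 21028 genes hold at least as many as Pla2g4a. Ptges, which was also higher with IL-17A, holds 0 in 3106 bases, and Ptger3, which was lower, holds 4 in 1933 bases.

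**Figure D2:**
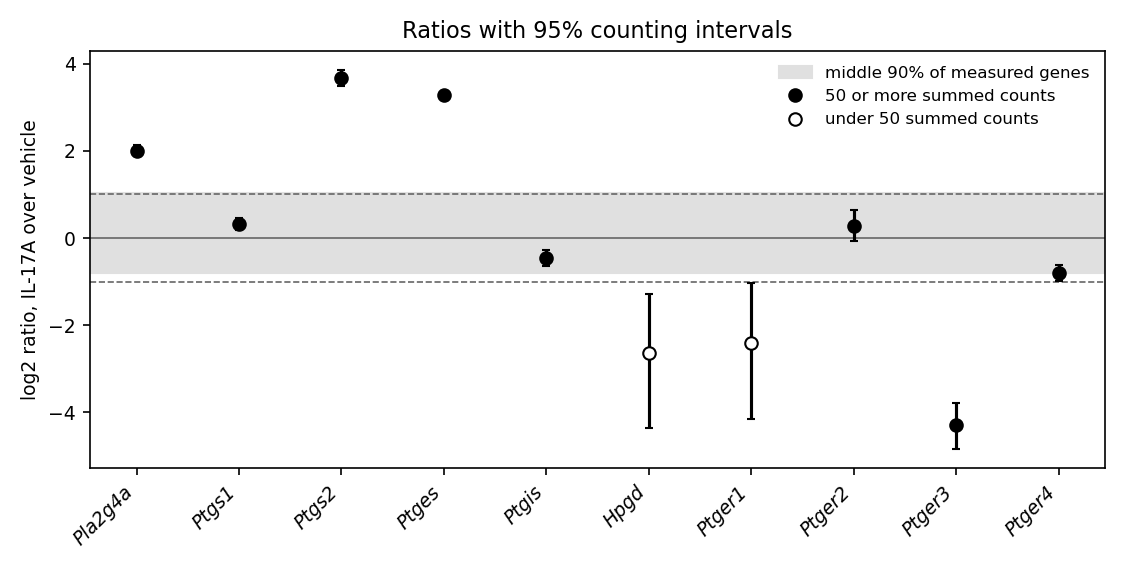
Log2 ratio of each member, IL-17A over vehicle, with 95% counting intervals. The grey band holds the middle 90% of the 13534 measured genes and dashed lines mark 2-fold. Ptgs2, Ptges and Pla2g4a stand above the band at 3.67, 3.28 and 2.004, Ptger3 stands below at -4.29, and the open points, Hpgd and Ptger1, have under 50 summed counts.

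Of the terminal synthases, the one that makes PGE2 was higher with IL-17A and the one that makes prostacyclin was within 2-fold. Ptges, the inducible microsomal synthase mPGES-1 that works with COX-2, had 8651 counts with IL-17A and 965 with vehicle. Its level was 376 CPM against 38.6 CPM, a ratio of 9.74 (interval 9.12 to 10.4), and it ranked 372nd among all rows by count in the IL-17A library and 5284th in the vehicle library. Ptgis, which makes prostacyclin, had 431 counts with IL-17A and 641 with vehicle, a ratio of 0.731 (interval 0.645 to 0.827), inside the 2-fold limit. Of the counts of these synthases Ptges held 95.3% (interval 94.8 to 95.7) with IL-17A and 60.1% (interval 57.6 to 62.5) with vehicle. Per transcript length Ptges held 92.1% with IL-17A and 46.5% with vehicle. Ptges lies on chromosome 2 at 30889471 to 30929863 and Ptgis on the same chromosome at 167191805 to 167240604, where 6.08% of the Ptgis exon bases are shared with a transcript on the other strand.

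Other PGE synthases differed less. Ptges2, the microsomal synthase mPGES-2, had 624 counts with IL-17A and 475 with vehicle, a log2 ratio of 0.51. Ptges3, the cytosolic synthase also known as the co-chaperone p23, had 1937 counts with IL-17A and 2539 with vehicle, a log2 ratio of -0.27, and is uncertain because a pseudogene copy is annotated. Ptges held 77.2% (interval 76.4 to 77.9) of the counts of the 3 PGE synthases with IL-17A and 24.3% (interval 22.9 to 25.6) with vehicle. Per transcript length these shares were 68.4% with IL-17A and 16.2% with vehicle. Per kilobase, Ptges3 led with vehicle, at 50.8 CPM against 10.6 CPM for Ptges, and Ptges led with IL-17A, at 103.1 CPM against 42.1 CPM for Ptges3.

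Transcripts of the degrading enzyme were scarce in both libraries. Hpgd, on chromosome 8 at 56294585 to 56321043, had 5 counts with IL-17A and 34 with vehicle, 0.217 CPM against 1.36 CPM. The ratio of 0.160 (interval 0.0488 to 0.411) rests on 39 counts, under the minimum, and was not called. Steps further along the breakdown and export route had no gene past 2-fold among 5 measured. The transporter Abcc4, which exports prostaglandins, had 452 counts with IL-17A and 323 with vehicle, a log2 ratio of 0.60, and the uptake carrier Slco2a1 had 307 and 325, a log2 ratio of 0.04. Zadh2, which had the most counts of this list over both libraries, had 1311 counts with IL-17A and 1295 with vehicle.

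Among the receptors, EP3 transcripts differed most. Ptger3, which encodes EP3, had 33 counts with IL-17A and 703 with vehicle, 1.43 CPM against 28.1 CPM. It was 19.6-fold (interval 13.8 to 28.7) lower, the 13th lowest log2 ratio of all measured genes at -4.29. Ptger3 reached the minimum of summed counts only through the vehicle library, where it was higher. It lies on chromosome 3 at 157566892 to 157645888 with no other annotated gene across it. The mural cell markers moved the same way, with 4 of 4 measured at least 2-fold lower and a median log2 ratio of -2.81. Kcnj8 had 6 counts with IL-17A and 100 with vehicle, 15.3-fold (interval 6.80 to 42.8) lower, and Abcc9 had 12 and 169, 13.0-fold (interval 7.23 to 25.6) lower. The intervals of both overlap that of Ptger3. Notch3 was 3.81-fold lower, and Cspg4, which dominates the summed level of 54.8 CPM with IL-17A and 155.5 CPM with vehicle, had 1070 counts with IL-17A and 2908 with vehicle. None of the 5 was at 0 in either library. Their part in the Ptger3 difference was not tested.

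Ptger4, which encodes EP4 and lies on chromosome 15 at 5206661 to 5244187, was lower by less. It had 377 counts with IL-17A and 714 with vehicle, 16.4 CPM against 28.5 CPM, a log2 ratio of -0.80 (interval -0.99 to -0.62), inside the 2-fold limit. A pseudogene on the other strand covers 15.3% of its exon bases and the gene Ttc33 1.23%, and Ttc33 had a log2 ratio of 0.40. Ptger2, which encodes EP2 and lies on chromosome 14 at 44988195 to 45003820, had 143 counts with IL-17A and 128 with vehicle, and its log2 ratio of 0.28 had an interval of -0.07 to 0.64 that spans 0. Ptger1, which encodes EP1 and lies on chromosome 8 at 83666678 to 83672753, had 5 counts with IL-17A and 29 with vehicle, under the minimum.

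Set side by side, the make-up of the receptor transcripts differed between the libraries. Ptger3 held 5.91% (interval 4.11 to 8.21) of EP receptor counts with IL-17A and 44.7% (interval 42.2 to 47.2) with vehicle. Ptger4 held 67.6% (interval 63.5 to 71.4) with IL-17A and 45.4% (interval 42.9 to 47.9) with vehicle, and Ptger2 held 25.6% (interval 22.1 to 29.5) with IL-17A and 8.13% (interval 6.83 to 9.59) with vehicle. The pair that raises cyclic AMP, EP2 and EP4, thus held 93.2% (interval 90.8 to 95.1) with IL-17A and 53.5% (interval 51.0 to 56.0) with vehicle. These shares need no scaling between libraries. The summed level of all 4 receptors was 24.2 CPM with IL-17A and 62.9 CPM with vehicle, 2.60-fold (interval 2.36 to 2.86) lower, and that of EP2 and EP4 was 22.6 CPM and 33.7 CPM, 1.49-fold (interval 1.33 to 1.67) lower. The higher share of EP2 and EP4 stood beside a lower summed level of both. Per kilobase, Ptger3 and Ptger4 had overlapping intervals with vehicle, at 8.93 and 8.62 CPM. With IL-17A the order was Ptger4 at 4.95, Ptger2 at 1.69, Ptger3 at 0.456 and Ptger1 at 0.0463 CPM per kilobase, and no intervals overlapped.

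**Figure D3:**
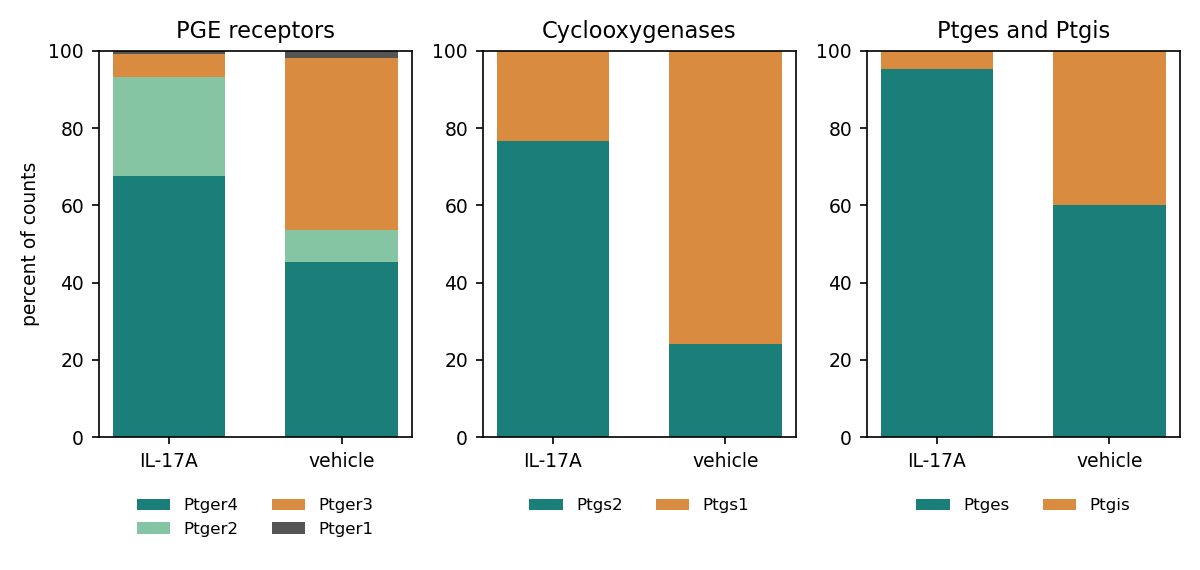
Share of counts within each library, in percent, for the 4 PGE receptors, the cyclooxygenases, and Ptges with Ptgis, IL-17A to the left of vehicle. Ptger3 takes 5.91% of receptor counts with IL-17A and 44.7% with vehicle, Ptgs2 takes 76.6% and 24.2% of cyclooxygenase counts, and Ptges takes 95.3% and 60.1% of its pair.

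Receptors for other prostanoids differed in both directions. Of 5 listed, 3 were measured, 1 of them at least 2-fold higher and 1 at least 2-fold lower. Ptgir, the prostacyclin receptor, had 918 counts with IL-17A and 411 with vehicle, a ratio of 2.43 (interval 2.16 to 2.73). It was higher while Ptgis, the synthase of its ligand, had a ratio of 0.731. Tbxa2r, the thromboxane receptor, had 524 counts with IL-17A and 1743 with vehicle, 3.06-fold (interval 2.77 to 3.38) lower. Ptgfr, the receptor for prostaglandin F2 alpha, had 389 and 498 counts, a log2 ratio of -0.24. Ptgdr and Ptgdr2, the prostaglandin D2 receptors, had no count in either library, which at a floor of 3 counts per library allows up to 0.130 CPM with IL-17A and 0.120 CPM with vehicle for each.

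Beyond the members, 7 lists of the wider pathway held 107 genes, of which 103 were in the table and 72 were measured. Of these, 6 (8.33%) passed 2-fold upward and 6 (8.33%) downward, against 5.19% and 3.69% of all measured genes, and their median log2 ratio was 0.04. Among 11 measured genes of arachidonate release and reacylation, 2 were higher and 1 lower. Pla2g7, which encodes platelet-activating factor acetylhydrolase, had 199 counts with IL-17A and 60 with vehicle, a ratio of 3.60. Plaat3, a phospholipase of adipose tissue, had 808 and 368 counts, a ratio of 2.39. Mgll, the monoacylglycerol lipase that frees arachidonic acid from an endocannabinoid, had 271 and 807 counts and was 2.74-fold lower. Plaa, which encodes a phospholipase A2-activating protein and had the most counts of this list, had 2262 with IL-17A and 2506 with vehicle. Of the 21 genes of the list in the table, 10 did not reach the minimum.

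The other prostanoid synthases had none of 5 measured past 2-fold, with a median log2 ratio of 0.31. Prxl2b, a prostaglandin F synthase, stood at 0.56 and Cbr1, a carbonyl reductase that acts on PGE2, at 0.31 on the log2 scale. Hpgds, which makes prostaglandin D2, had 13 counts with IL-17A and 31 with vehicle, and Ptgds had no count in either library. Among lipoxygenase, leukotriene and epoxide genes, 5 of 16 were measured and 1 was past 2-fold. Ephx1, the microsomal epoxide hydrolase, had 1457 counts with IL-17A and 3508 with vehicle and was 2.22-fold lower. Lta4h, which makes leukotriene B4, had the most counts of the list summed over both libraries, 3043 with IL-17A and 2580 with vehicle, with Ephx1 above it in the vehicle library, while Alox5, the lipoxygenase that starts that route, had 30 and 21.

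In the list of cyclic AMP coupling, the route downstream of EP2, EP3 and EP4, 2 of 32 measured genes were at least 2-fold higher and 3 lower. The higher genes were phosphodiesterases, which break down cyclic AMP: Pde7b at a ratio of 3.004 (interval 2.51 to 3.61) and Pde4b at 2.49 (interval 2.30 to 2.70). Adcy1, an adenylyl cyclase, had 29 counts with IL-17A and 372 with vehicle, 11.8-fold (interval 8.08 to 17.9) lower. Like Ptger3, it reached the minimum of summed counts only through the vehicle library. The cyclase Adcy5 and the phosphodiesterase Pde8b were each 2.03-fold lower, with counting intervals that reach inside 2-fold. Gnas, the stimulatory G protein subunit that EP2 and EP4 use, had 27620 counts with IL-17A and 33641 with vehicle, a log2 ratio of -0.16. Of 11 measured cyclic AMP response genes, 1 was higher, the phosphatase Dusp1 with 1152 counts with IL-17A and 583 with vehicle. Its ratio of 2.15 had an interval of 1.94 to 2.38 that reaches inside 2-fold. Crtc3, a CREB coactivator with the most counts of them summed over both libraries, had 1047 with IL-17A and 1656 with vehicle, a log2 ratio of -0.54.

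**Figure D4:**
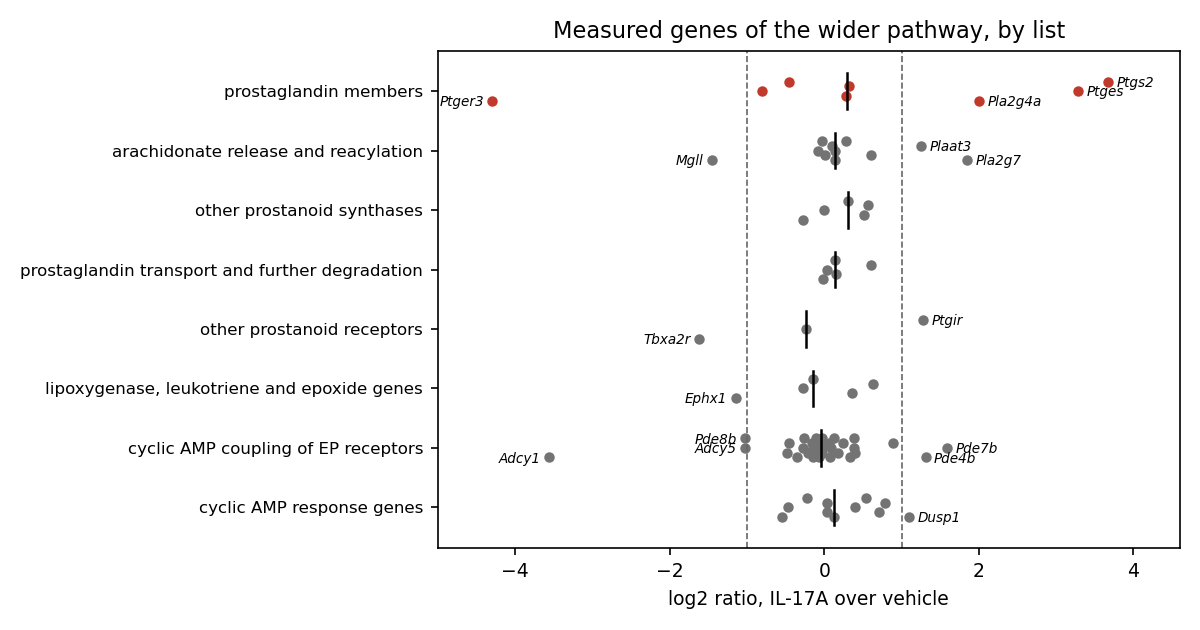
Log2 ratio, IL-17A over vehicle, of each measured gene of the prostaglandin members (red) and of the 7 wider lists (grey), with a black bar at each list's median and dashed lines at 2-fold. Genes past 2-fold are named. Most wider-pathway genes lie inside 2-fold, while Ptgs2, Ptges and Pla2g4a lie at 2.004 or above and Ptger3 at -4.29.

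The genes closest in log2 ratio to Ptgs2 and Ptger3 were sought among measured genes within 2-fold of their mean level, over only 2 libraries. Symbols of predicted gene models were left out. For Ptgs2, with 4104 such genes, they were Ifitm1 at a log2 ratio of 3.75, Gbp2 at 3.58 and Prdm1 at 3.47. Ifitm1, an interferon-induced membrane protein, had 3946 counts with IL-17A and 319 with vehicle. Ifitm1 and Gbp2 belong to families of close copies, so reads may be split among them. For Ptger3, with 3699 such genes, they were Cilp at -4.30, Ednrb at -4.52 and Ogn at -4.01. Ednrb, which encodes an endothelin receptor, had 23 counts with IL-17A and 574 with vehicle. Cilp had 19 and 408, so Cilp, Ednrb and Ptger3 each reached the minimum only through the vehicle library. The measure of likeness was the gap in log2 ratio alone.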

How the data were processed

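Bulk RNA-seq libraries of 1 IL-17A and 1 vehicle culture were compared. The deposited values are whole-number counts per gene symbol, without normalization, made with STAR and featureCounts on mm10 per the submitters' processing notes. Versions, annotation, strand setting and the treatment of multiply aligned reads are not stated in what was used here, so antisense and copied genes are uncertain. Exon overlap of Ptger1 is not reported here. Per the labels' protocols, libraries came from Illumina's stranded mRNA kit.

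Library sizes were scaled by TMM in edgeR 4.0.16 under R 4.3.3. Shares and ratios carry 95% intervals from exact Clopper-Pearson bounds on how counts divide among genes or between the libraries, and levels carry Poisson intervals (scipy 1.17.1). No molecular identifiers are described, so PCR copies may count separately and the intervals cover counting error only. The calculation was tested on simulated Poisson counts with no variation between cultures, so the test checks the arithmetic and not how cultures vary. Gene models and lengths came from GENCODE M21, promoters from RefSeq GRCm38.p6. The members and lists were chosen with earlier results of these data known. The text names all members, every pathway or marker gene past 2-fold, the gene with the most summed counts of each list, the 2 such markers of each cell type, and 3 nearest genes for Ptgs2 and Ptger3, while other genes were named after their values were seen. Listed genes absent from the table were not analysed here, and 2 were matched by an older symbol. Alternatives covered scaling, minimum counts, fold limit, prior count and length.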

Additional observations from a re-analysis of the deposited data

How the results depend on the processing

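The log2 ratios of the 8 measured members kept their direction and stayed within their counting intervals under DESeq2 size factors, upper quartile scaling, total counts and a prior count of 2 per library. The largest of these scalings shifted all log2 ratios by -0.07, and no member crossed 2-fold under any of them. A minimum of 10 summed counts, or none above 0, brought Hpgd and Ptger1 in, which gave 3 members at least 2-fold lower and a median of -0.086. Over all genes, 1090 were then higher and 955 lower at a minimum of 10, and 1573 and 1335 with none, while a minimum of 200 left 275 lower. At 1.5-fold 2 members were lower, Ptger3 and Ptger4, with 1364 genes higher and 1117 lower in all. At 3-fold the table held 340 and 219, and the calls of the members were the same 3 and 1. Per transcript length Ptgs2 held 67.8% of cyclooxygenase counts with IL-17A and 17.05% with vehicle. Per merged exon length, an alternative added after seeing the data, these were 73.5% and 21.3%, and Ptger3 held 47.4% of EP receptor counts with vehicle. On that length Ptgs2 stood above Pla2g4a with IL-17A, the reverse of their order per transcript length. Leaving out a replicate could not be done with 1 library per group. Depth limits Hpgd and Ptger1 most, with 5 counts each in the IL-17A library.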
